A study of Mus musculus with 8 samples.

Results

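The Slc25 genes encode the mitochondrial carriers, and 45 of them were found among the 23930 targets of the table by their symbols, Slc25a followed by a number. They were examined in the tibialis anterior, a mainly fast-twitch muscle at the front of the shin, in 4 WT and 4 KO libraries of mouse RNA. KO mice carried an inducible Cre recombinase under HSA, a skeletal muscle actin promoter, together with a loxP-flanked Sdhc, which encodes a membrane anchor subunit of succinate dehydrogenase (complex II). WT mice were littermates with the same HSA-Cre and no loxP sites. The strain reads C57BL/6 on the WT labels and C57BL/7, C57BL/8, C57BL/11 and C57BL/12 on those of KO1 to KO4, where the growth notes name C57/B6 mice, so the KO strain entries are doubtful. Tamoxifen was given to both groups at 12 weeks of age and tissue was taken 3 weeks afterwards, so Cre and tamoxifen were shared by all 8 mice. The deletion is driven in muscle fibres, and other cells of the muscle keep the gene. The comparison asks how transcripts of the carriers differ 3 weeks after the loss of Sdhc. In bulk muscle, fewer cells of a type and less RNA per cell cannot be told apart.

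Mitochondrial carriers are membrane proteins built from a repeated fold that move metabolites, nucleotides, phosphate and cofactors across the inner mitochondrial membrane, which is otherwise closed to them. In muscle, the ADP/ATP carrier exports the ATP made by oxidative phosphorylation, the phosphate carrier supplies its phosphate, and the oxoglutarate and aspartate-glutamate carriers run the malate-aspartate shuttle, which brings the reducing power of cytosolic NADH into the matrix. Succinate, the substrate of complex II, crosses the same membrane on the dicarboxylate carrier, the product of Slc25a10. Slc25a5, the second ADP/ATP carrier, and Slc25a36, a pyrimidine nucleotide carrier, were not analysed here.

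Each library held 5983175 to 9119006 reads on targets, and 1 short amplicon was read per gene. Values are RPM, reads on a target scaled to a common library total, and 3 reads, taken as the floor of detection, stood at 0.329 to 0.501 RPM. Levels of different genes are amplicon levels, not divided by length, and how efficiently each one amplifies is unknown here. Genes of fast fibres summed to 101031 to 152532 RPM over 7 genes, so the labelled fast muscle carried its markers. The 6 slow fibre genes summed to between 180.5 and 318.6 RPM for WT and between 222.8 and 863.9 RPM for KO. All 6 had log2 fold changes above 0 (median 1.11), 3 of them with an unadjusted p under 0.05, and 0 passed (limma, smallest adjusted p 0.230). Genes of other cell types differed between the libraries. The summed level of 10 bone genes was 329.0, 73.0, 33.7 and 755.3 RPM in WT1 to WT4 and 13.4 to 31.6 RPM in the KO libraries. The 8 fibroblast genes summed to between 1309 and 7025 RPM for WT and between 541.9 and 944.0 RPM for KO, and of 8 macrophage genes from 41.7 to 198.5 and from 26.6 to 32.4 RPM. WT1 and WT4 stood highest in all 3 lists. The 7 granulocyte genes summed to 0.931 to 4.17 RPM, with Mpo at 0 in every library. The sums of 7 adipocyte genes spanned 224.9 to 288.8 RPM among WT libraries and 179.8 to 224.1 RPM among KO libraries, and the 6 endothelial genes to 345.1 to 389.7 and 304.3 to 366.8 RPM.

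Sdhc, the targeted gene, measured 737, 853, 848 and 748 RPM across WT1 to WT4, against 16.9, 46.5, 18.7 and 54.3 RPM across KO1 to KO4. Every KO library lay far below every WT library, as labelled. The log2 fold change was -4.68 (SE 0.31, adjusted p = 1.06e-05, limma with Benjamini-Hochberg adjustment over 11004 tested targets).

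None of the carriers passed the test between KO and WT. Of the 45 members, 34 had a mean of at least 1 RPM and were tested, and 0 of these passed the adjusted threshold of 0.05, where 0.0273% of all 11004 targets did (limma on log2(RPM + 1), smallest adjusted p of a member 0.454; 0 members also by edgeR and by DESeq2 on the recovered reads). At an unadjusted p under 0.05 there was 1 member, Slc25a37, against 9.22% of all targets, and edgeR gave 1 and DESeq2 0. In 1 member, Slc25a24, the groups did not overlap, against 5.1% of all targets. Values above 0 were seen in 18 of the 34 members and in 40.8% of all targets. The share over all targets depended on the scaling of the libraries, with 52.3% by median ratio, 49.7% by TMM and 57.4% by quantiles, where 21 of the 34 members were above 0 in each. The median log2 fold change of the members was 0.00 (quartiles -0.13 and 0.11), and that of all tested targets was -0.05 (quartiles -0.20 and 0.08).

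The intervals show what size of change on log2(RPM + 1) the 8 libraries could bear. In 21 of the 34 tested members the 95% interval of the log2 fold change lay within 1.5-fold in either direction, and in 33 it lay within 2-fold. The exception to the wider bound was Slc25a25, whose libraries differed most. This scale understates the change of genes at a few RPM, so for them these bounds need not hold for the level itself. With a pseudocount of 0.1 RPM the log2 fold change of Slc25a24 was -0.63, against -0.43 in the main fit. That of Slc25a10 was -0.45, against -0.29. The 13 members whose interval crossed 1.5-fold were Slc25a1, Slc25a10, Slc25a16, Slc25a22, Slc25a24, Slc25a25, Slc25a28, Slc25a29, Slc25a30, Slc25a33, Slc25a34, Slc25a37 and Slc25a45. The remaining 11 members were below a mean of 1 RPM, and 1 of them, Slc25a21, was at 0 reads in all libraries, which allows a level of up to 0.329 to 0.501 RPM. Slc25a21 encodes the oxodicarboxylate carrier.

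**Figure D1:**
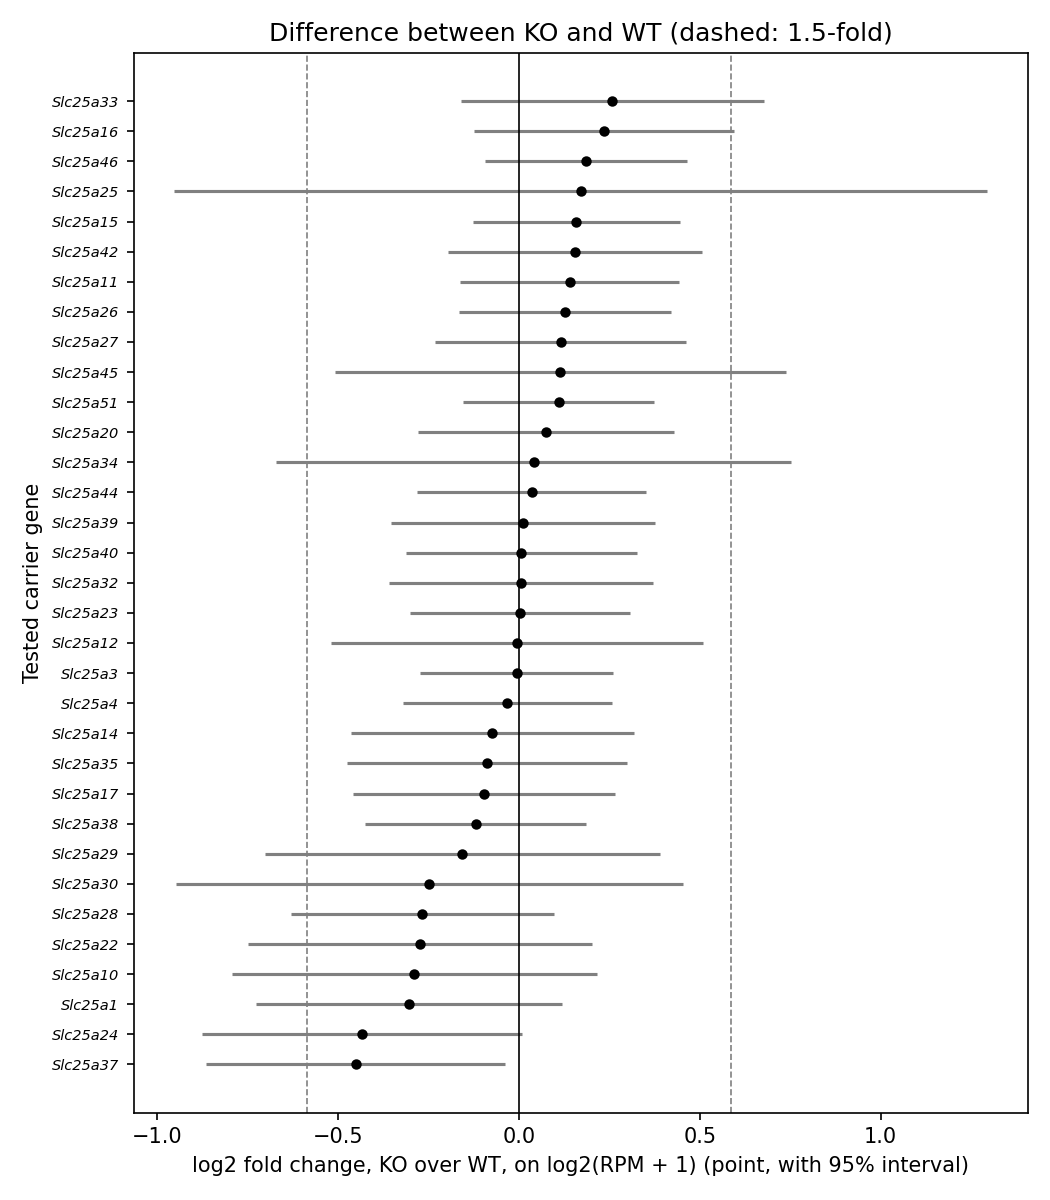
Log2 fold change of KO over WT (horizontal axis, on log2(RPM + 1)) for 33 tested Slc25 genes, as points with 95% intervals from limma, n = 4 libraries per group; dashed lines mark 1.5-fold. All points lie inside the dashed lines, and the interval of Slc25a37 alone does not reach 0 (adjusted p = 0.454).

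The adenine nucleotide and phosphate carriers, which serve the export of ATP, made up most of the reads of the family. Slc25a4, the ADP/ATP carrier of heart and skeletal muscle (chromosome 8, 46206797 to 46211284, minus strand, GRCm38), measured 7341, 8623, 8404 and 7543 RPM across WT1 to WT4, against 8124, 8279, 8136 and 6698 RPM across KO1 to KO4. The groups overlapped, and 3 KO libraries lay between the highest and the lowest WT library. Means were 7978 ± 630.3 RPM (SD) over the 4 WT and 7809 ± 744.1 RPM over the 4 KO libraries. Limma placed the log2 fold change at -0.03 (95% interval from -0.32 to 0.26). An exact two-sided permutation test gave p = 0.743. The sign of this value turned with the scaling, to 0.02 with TMM and 0.03 with the median ratio. Slc25a31, the ADP/ATP carrier of testis, had 0 to 4 reads per library.

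Slc25a3, the phosphate carrier, measured 2411, 2101, 2461 and 2012 RPM across WT1 to WT4, against 2214, 2458, 2244 and 2020 RPM across KO1 to KO4. Both groups covered nearly the same range. Its log2 fold change was -0.01 with a 95% interval from -0.27 to 0.26, and the sign turned under TMM (0.04) and the median ratio (0.06). The ATP-Mg/phosphate carriers, which exchange adenine nucleotides for phosphate, gave 0 of 3 tested members past the threshold. Slc25a23 had a mean of 34.2 ± 4.44 RPM (SD) over the 4 WT and 34.3 ± 4.33 RPM over the 4 KO libraries, a log2 fold change of 0.00. Slc25a41 had 0 or 1 read per library.

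Slc25a24, an ATP-Mg/phosphate carrier, was the 1 member whose groups did not overlap. It measured 2.30, 2.29, 2.66 and 3.29 RPM across WT1 to WT4, against 2.17, 1.97, 0.990 and 1.74 RPM across KO1 to KO4, on 8 to 27 reads per library. The highest KO library lay just below the lowest WT library. The KO to WT difference was -0.43 on the log2 scale with a 95% interval from -0.88 to 0.01 (limma with Benjamini-Hochberg adjustment, adjusted p = 0.556), so it did not pass. On log2(RPM + 1) the change of a gene at this level is understated. By edgeR and by DESeq2 on the recovered reads the log2 fold change was -0.59, and it did not pass there either. The highest WT value was in WT4, which also had the highest sums of bone, fibroblast and macrophage genes. Without WT1 and WT4 the log2 fold change was -0.37 (adjusted p = 0.9999).

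Slc25a25, also an ATP-Mg/phosphate carrier (chromosome 2, 32414487 to 32451445, minus strand), varied most within the groups. It measured 11.6, 40.0, 26.5 and 20.5 RPM across WT1 to WT4, against 73.2, 20.1, 35.6 and 7.52 RPM across KO1 to KO4, on 65 to 438 reads. The highest and the lowest library were both KO, 9.73-fold apart, and the values by inferred sex are given below. Its SD within groups was 1.06 on the log2 scale, as large as or larger than that of 99.4% of the targets that averaged 10 RPM or more. The log2 fold change of 0.17 had an interval from -0.95 to 1.29. It turned to -0.33 without KO1, to -0.13 without WT1 and to -0.34 without WT1 and WT4. In the other direction it rose to 0.71 without KO4, to 0.50 by edgeR and to 0.51 by DESeq2.

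**Figure D2:**
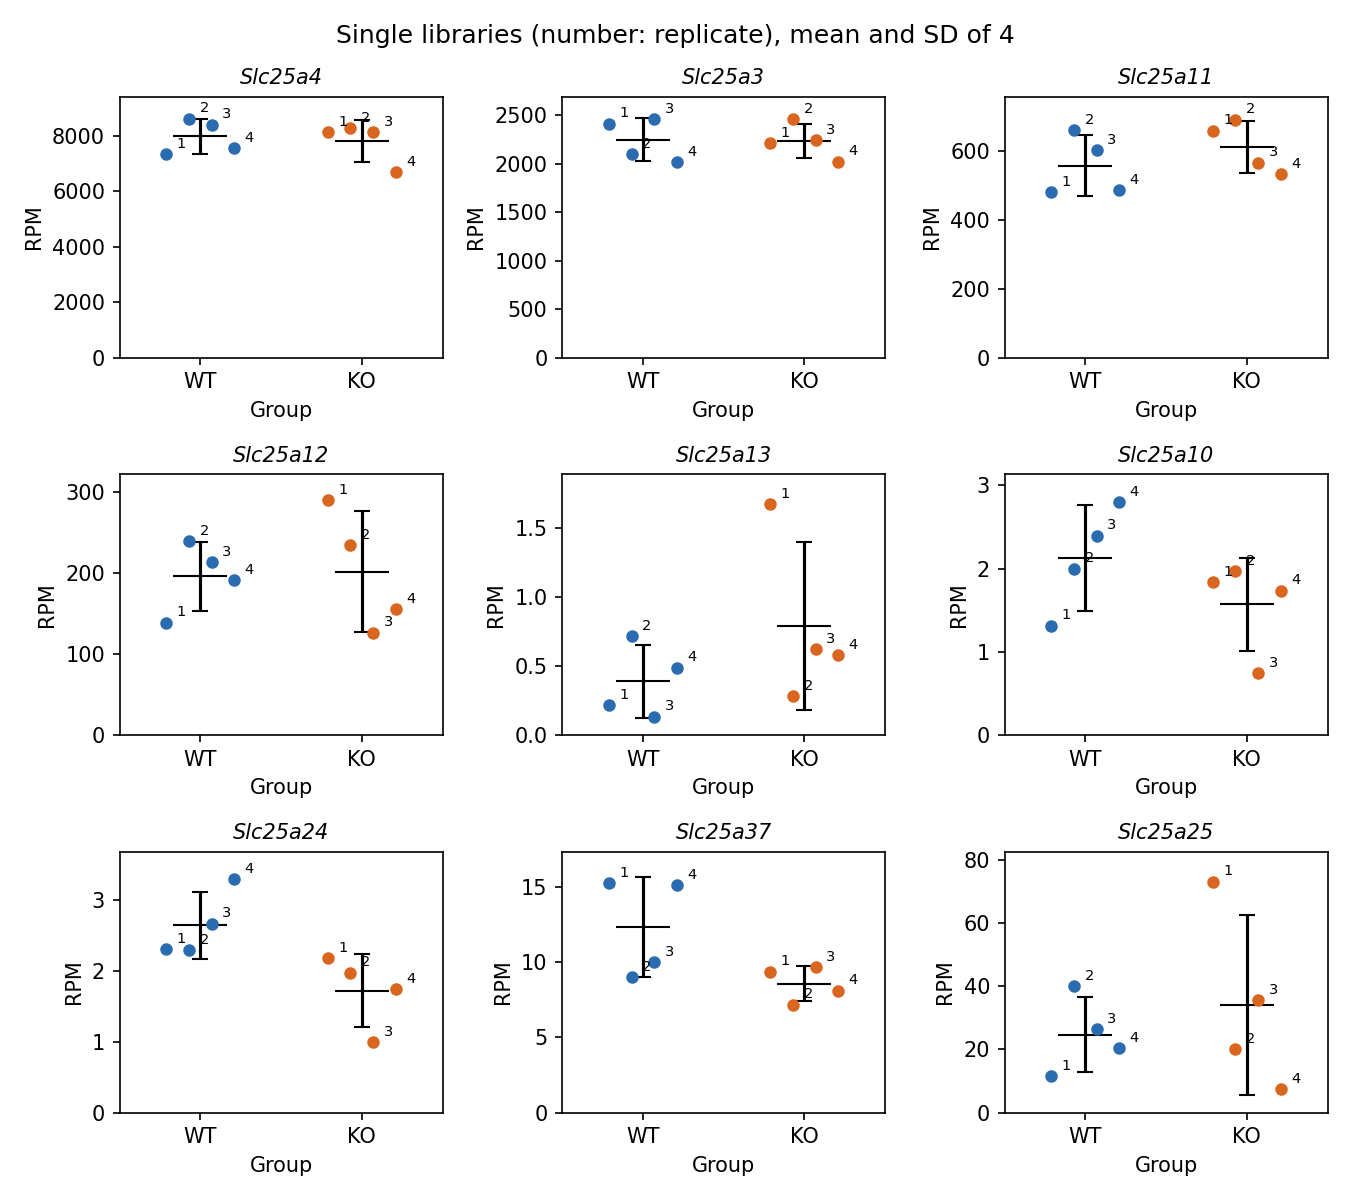
RPM (vertical axis, from 0) of 9 Slc25 genes in each library, WT blue and KO orange, with the replicate number beside each point, and a bar for the mean ± SD of 4 libraries. The groups overlap in all panels except Slc25a24, and Slc25a25 has its highest (73.2 RPM) and lowest (7.52 RPM) library in KO.

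The letters before the start of Slc25a25 are shown because it was the most variable member and the 1 member with a cAMP response element, the palindrome TGACGTCA, within 250 bases before a start listed by RefSeq (GRCm38.p6). RefSeq gives 3 starts for this gene, and the element lies 150 to 143 bases before the start at the end of chr2:32424067-32424316, minus strand. Capitals mark the element.
Slc25a25: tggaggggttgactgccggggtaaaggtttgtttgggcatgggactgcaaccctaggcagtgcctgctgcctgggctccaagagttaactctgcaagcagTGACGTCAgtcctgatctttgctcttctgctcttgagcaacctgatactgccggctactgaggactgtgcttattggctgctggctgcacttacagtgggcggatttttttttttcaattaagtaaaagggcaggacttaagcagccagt
Promoters of 34 members were found in the RefSeq table, 44 in all, and 4 motifs were searched on both strands in the 250 bases before each start. TGACGTCA was in 1.55% of 32851 promoters of all genes and in 1 of the 44. The element of the respiratory factor NRF1, searched by its usual consensus, was in 3.74% of all and in 2 of the 44, those of Slc25a3 and Slc25a31. The E-box CACGTG, bound by clock factors among others, was in 6.02% of all and in 7 of the 44, which belong to 6 members, since windows of Slc25a14 overlap and share 1 such match. The element of estrogen-related receptors, TCAAGGTCA, was in 0.387% of all and in 0 of the 44, which says only that these letters were not in these windows. Such matches describe the letters and are neither sites nor causes, and no motif overlapped another in the Slc25a25 window.

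Carriers of di- and tricarboxylates include the route by which succinate crosses the membrane, and 0 of the 3 tested members passed. Slc25a10, the dicarboxylate carrier, which exchanges malate or succinate for phosphate (chromosome 11, 120491840 to 120499187, plus strand), was near the floor. It measured 1.32, 2, 2.40 and 2.80 RPM across WT1 to WT4, against 1.84, 1.97, 0.743 and 1.74 RPM across KO1 to KO4, on 6 to 23 reads. All 4 KO libraries were below the 3 highest WT libraries, and WT1 lay among the KO values. The order of KO2 and WT2 rested on their library totals, since each held 14 reads. The log2 fold change was -0.29 with an interval from -0.79 to 0.21, and the exact permutation p was 0.229 (0.571 adjusted over 4 members). Without KO3 it was -0.11, without WT4 -0.19 and without WT1 -0.43. A fold change on log2(RPM + 1) understates the change of genes at this level.

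Slc25a11, the oxoglutarate/malate carrier, measured 481, 662, 603 and 488 RPM across WT1 to WT4, against 661, 692, 567 and 533 RPM across KO1 to KO4. WT1 and WT4 were the lowest libraries. The log2 fold change of 0.14 (interval from -0.16 to 0.44) became -0.05 without WT1 and WT4. Slc25a1, the citrate carrier, which exports citrate for fatty acid synthesis, measured 3.51, 3.29, 2.93 and 2.80 RPM across WT1 to WT4, against 2.51, 2.11, 3.34 and 1.62 RPM across KO1 to KO4. KO3 lay among the WT libraries and the other KO libraries below them (log2 fold change -0.30, interval from -0.73 to 0.12).

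The aspartate and glutamate carriers were represented in this muscle mainly by Slc25a12, and 0 of 2 tested members passed. Slc25a12 encodes aralar, the calcium-activated aspartate-glutamate carrier of muscle and brain (chromosome 2, 71271063 to 71367749, minus strand). It measured 138.8, 239.3, 213.3 and 191.6 RPM across WT1 to WT4, against 290.1, 234.4, 126.4 and 155.3 RPM across KO1 to KO4. The KO group held both the highest and the lowest library. The means were 195.8 ± 42.7 and 201.6 ± 74.7 RPM (SD, n = 4 each). The log2 fold change was -0.01 (interval from -0.52 to 0.51) and the exact permutation p of the RPM 0.886. The sign turned with TMM (0.04) and the median ratio (0.06), and the value ran from -0.21 to 0.19 when each library was left out.

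Slc25a13, the gene of citrin, the aspartate-glutamate carrier prominent in liver (chromosome 6, 6041218 to 6217173, minus strand), was at or near the floor. It had 2, 5, 1 and 4 reads in WT1 to WT4 and 10, 2, 5 and 5 reads in KO1 to KO4, which is 0.133 to 0.714 RPM for WT and 0.281 to 1.67 RPM for KO. The exact Poisson interval of KO1, the highest, ran from 0.801 to 3.07 RPM and that of WT3, the lowest, from 0.00337 to 0.742 RPM, covering counting error only. It was below the level for the test across genes, and the exact permutation p of the RPM was 0.286 (0.571 adjusted over 4 members). The log2 ratio of Slc25a12 to Slc25a13 was 9.24 ± 1.02 in WT and 8.22 ± 1.02 in KO (SD, n = 4 each, exact permutation p = 0.229), and it rested on these few reads. The difference of -1.02 became -0.33 on RPM + 1, -0.55 without WT3 and -1.51 without KO2. The log2 ratio of Slc25a12 to Slc25a11, the carriers of the malate-aspartate shuttle, was -1.53 ± 0.19 in WT and -1.67 ± 0.41 in KO (SD, n = 4 each, exact permutation p = 0.571).

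Slc25a22, a glutamate carrier, had a mean of 19.6 ± 7.83 RPM (SD) over the 4 WT and 15.4 ± 2.80 RPM over the 4 KO libraries, and the WT spread came from WT2 at 31.3 RPM. Slc25a18, the other glutamate carrier, had 1 read in KO4 and 0 elsewhere.

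Carriers of iron and glutathione held the member with the most negative value. Slc25a37, mitoferrin-1, which imports iron and is best known from developing red cells (chromosome 14, 69241848 to 69285112, minus strand), measured 15.2, 8.999, 9.98 and 15.1 RPM across WT1 to WT4, against 9.36, 7.17, 9.65 and 8.10 RPM across KO1 to KO4. WT1 and WT4 stood apart, and WT2 and WT3 lay within or close to the range of the KO libraries. The KO to WT difference was -0.45 on the log2 scale with an interval from -0.87 to -0.04 (unadjusted p = 0.0346; adjusted p = 0.454 by limma with Benjamini-Hochberg adjustment), so it did not pass. WT1 and WT4 were also the libraries highest in bone (329.0 and 755.3 RPM), fibroblast and macrophage genes. Without them the log2 fold change was -0.14, and with the bone genes as a covariate -0.06. The mean of the bone genes on log2(RPM + 1) was 1.36 to 3.73 in WT and 0.596 to 1.40 in KO. It was mostly higher in WT, with WT3 (1.36) just below KO2 (1.40), so the covariate fit could not cleanly tell bone content from genotype. The 4 erythroid genes in the table summed to 6.80, 15.7, 10.9 and 10.4 RPM in WT1 to WT4 and to 5.90 to 15.3 RPM in KO, with WT1 lowest among the WT libraries.

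The other members of that group differed less between the groups. Slc25a28, mitoferrin-2, had a mean of 20.9 ± 4.67 RPM (SD) over the 4 WT and 17.0 ± 2.21 RPM over the 4 KO libraries, a log2 fold change of -0.27 with an interval from -0.63 to 0.10. Slc25a39 and Slc25a40, which are needed for glutathione import, had log2 fold changes of 0.01 each. Of 6 tested genes of mitochondrial iron use, 0 passed and 2 were above 0.

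The carnitine/acylcarnitine carrier Slc25a20, which brings long-chain fatty acids to oxidation in the matrix, measured 73.3, 122.0, 90.8 and 79.9 RPM across WT1 to WT4, against 113.5, 96.9, 88.5 and 82.2 RPM across KO1 to KO4. The KO range lay inside the WT range. Its log2 fold change was 0.07 with an interval from -0.28 to 0.43, and it became -0.15 without WT1 and WT4 and -0.02 and -0.01 without WT1 or KO1 alone. Slc25a44, a carrier of branched-chain amino acids, averaged 57.7 ± 8.23 and 59.2 ± 8.80 RPM. Of the other amino acid carriers, 0 of 3 tested passed, with Slc25a15, the ornithine carrier, at 26.1 ± 3.31 and 29.2 ± 1.96 RPM and Slc25a38, a glycine carrier needed for heme synthesis, at 26.8 ± 3.33 and 24.5 ± 2.89 RPM (SD, n = 4 each). Slc25a29, a carrier of basic amino acids, averaged 9.80 ± 2.98 and 8.65 ± 2.68 RPM, and Slc25a2, an ornithine carrier, had 1 to 5 reads.

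Of the carriers of cofactors and nucleotides, 6 of 8 tested members were above 0, with a median of 0.12 and 0 past the threshold, beside 40.8% of all targets above 0. Without WT1 and WT4 it was 3 of the 8 (median -0.03, beside 29.0% of all targets), and with the bone gene covariate 4 of the 8 (median -0.03, beside 30.2%). Under the 3 other scalings 6 or 7 of the 8 were above 0, beside 49.7% to 57.4% of all targets. Slc25a33, a pyrimidine nucleotide carrier, had the largest positive value of the family and measured 10.1, 14.9, 14.0 and 9.87 RPM across WT1 to WT4, against 18.7, 15.8, 14.4 and 10.5 RPM across KO1 to KO4. WT1, WT4 and KO4 were low and the other libraries high. The log2 fold change was 0.26 with an interval from -0.16 to 0.68, and it was 0.01 without WT1 and WT4. Slc25a16, linked to coenzyme A, measured 16.0, 22.4, 25.6 and 20.6 RPM across WT1 to WT4, against 30.3, 25.6, 22.2 and 21.8 RPM across KO1 to KO4. The groups overlapped, and the log2 fold change of 0.23 (interval from -0.12 to 0.59) was 0.04 without WT1 and WT4. Slc25a42, a coenzyme A carrier, Slc25a51, the NAD carrier, and Slc25a26, the S-adenosylmethionine carrier, had log2 fold changes of 0.16, 0.11 and 0.13. The peroxisomal carrier Slc25a17 and Slc25a32, linked to folate, had log2 fold changes of -0.10 and 0.01.

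Slc25a46, an outer membrane member linked to mitochondrial shape, measured 90.7, 76.6, 95.2 and 70.3 RPM across WT1 to WT4, against 102.0, 98.9, 89.5 and 86.6 RPM across KO1 to KO4. WT2 and WT4 lay below all KO libraries, and the log2 fold change was 0.19 with an interval from -0.09 to 0.47. Of the uncoupling-protein-like members, Slc25a30 measured 42.3, 23.6, 64.9 and 29.97 RPM across WT1 to WT4, against 59.0, 26.3, 31.4 and 19.6 RPM across KO1 to KO4. Its libraries differed about as widely in both groups, with a log2 fold change of -0.25. Slc25a14 and Slc25a27 had log2 fold changes of -0.07 and 0.11. Of the members with no role stated here, Slc25a34, Slc25a35 and Slc25a45 were tested, with log2 fold changes of 0.04, -0.09 and 0.11, and Slc25a43, Slc25a47, Slc25a48, Slc25a53 and Slc25a54 had at most 8 reads in a library.

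**Figure D3:**
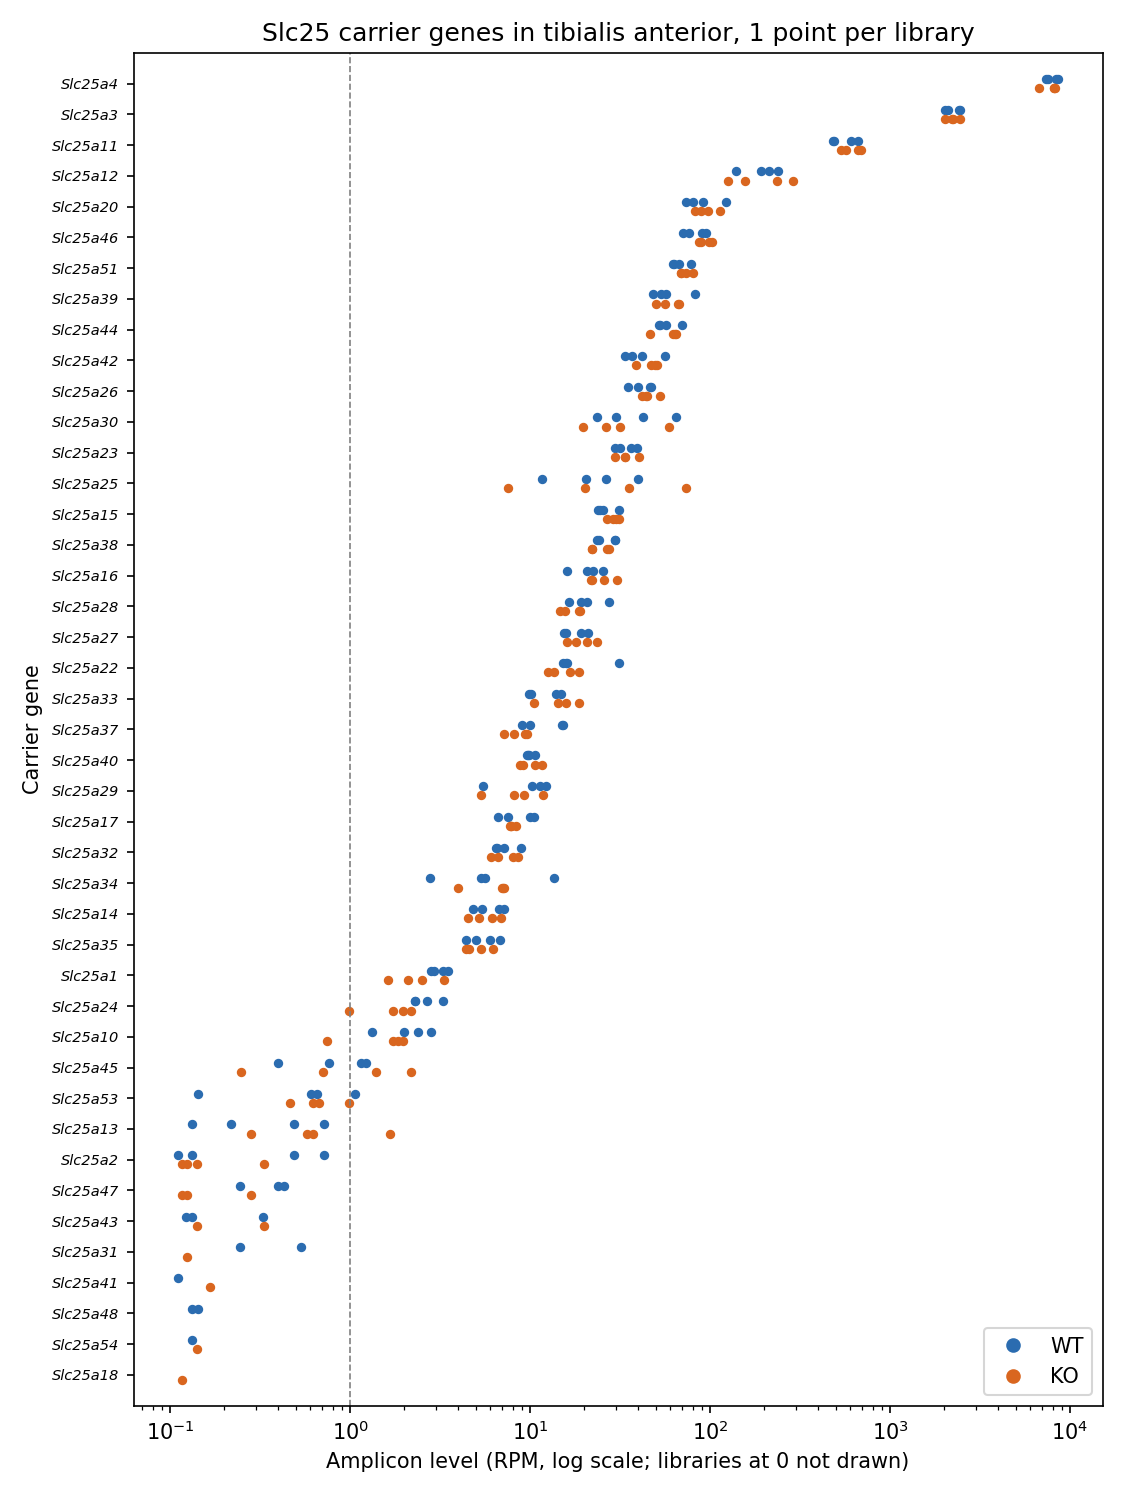
RPM on a log axis (horizontal) of 43 Slc25 genes above 0 in any library (vertical, ordered by mean), 1 point per library, WT blue and KO orange; the dashed line is 1 RPM and libraries at 0 are not drawn. The points of the groups overlap in nearly every gene, from Slc25a4 at 6698 to 8623 RPM down to genes with single reads.

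The family as a whole took about the same share of reads in both groups. The summed level of the 45 members was 11102, 12504, 12564 and 10951 RPM in WT1 to WT4 and 12205, 12509, 11866 and 10146 RPM in KO1 to KO4. The groups overlapped, at 1.18 ± 0.0873% of reads in WT and 1.17 ± 0.106% in KO (SD, n = 4 each; exact two-sided permutation p = 0.886, where the smallest possible is 0.0286). Slc25a4 made up 67.7 ± 1.43% of this sum in WT and 66.8 ± 1.18% in KO (exact permutation p = 0.286). Without Slc25a4 and Slc25a3 the sum was 1556 ± 215.0 RPM (SD, n = 4) for WT, against 1638 ± 214.2 RPM for KO (exact permutation p = 0.543).

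The libraries differed from each other within the groups in a way shared by many members. WT1 was the lowest WT library in 13 of the 34 tested members and WT4 in 11, against 6 for WT2 and 4 for WT3. In the KO group, KO4 was lowest in 17 members and KO1 highest in 17. The same counts over all targets are not given here, so these do not show a trait particular to the carriers. Without WT1 and WT4, 6 of the 34 members were above 0, with a median of -0.13, beside 29.0% of all targets with a median of -0.10. With the mean level of the bone genes as a covariate, 8 of 34 were above 0 with a median of -0.11, beside 30.2% and -0.10. None passed in either fit. The bone genes were mostly higher in WT, so the covariate fit could not cleanly tell their level apart from genotype. The slow fibre genes were highest in KO4 (863.9 RPM) and KO2 (500.2 RPM), and their part in the carrier values was not tested.

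**Figure D4:**
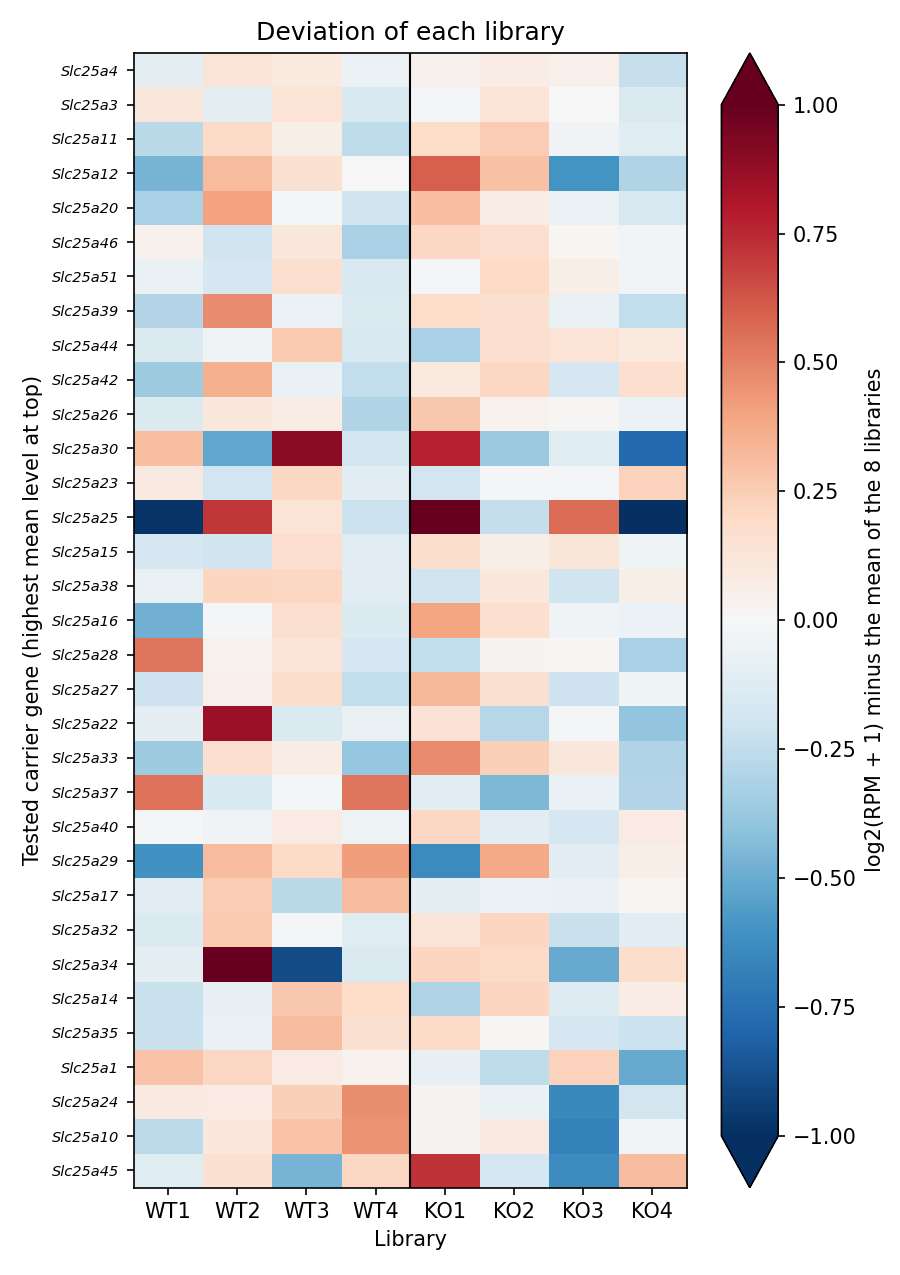
Level of each library (columns) for 33 tested Slc25 genes (rows, highest mean at the top), as log2(RPM + 1) minus the mean of the 8 libraries; red is above and blue below that mean, and the colour scale ends at 1 in either direction. WT1 and KO4 are blue in many rows and KO1 red in many, while Slc25a25, Slc25a30 and Slc25a34 vary most.

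Genes that work beside the carriers were read from lists of their pathways. Of the carrier-fold genes under other symbols, 0 of 4 tested passed. Mtch2, an outer membrane insertase of this fold, measured 92.4, 82.3, 90.4 and 73.2 RPM across WT1 to WT4, against 66.0, 79.6, 64.1 and 62.0 RPM across KO1 to KO4. KO2 alone of the KO libraries reached the WT range (log2 fold change -0.31, unadjusted p = 0.0296; adjusted p = 0.435 by limma with Benjamini-Hochberg adjustment). Ucp2, an uncoupling protein gene of many cell types, macrophages among them, averaged 53.2 ± 21.3 and 37.4 ± 10.2 RPM (SD, n = 4 each), with its highest value, 82.8 RPM, in WT4. Ucp1, the uncoupling protein of brown fat, was at 0 reads in all libraries.

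Of 16 tested genes of other mitochondrial metabolite and ion transport, 0 passed and 6 were above 0. The 2 with the smallest p were Sfxn1, a mitochondrial serine transporter gene, at 2.56 ± 0.609 RPM (WT) against 1.68 ± 0.623 RPM (KO), and Slc8b1, the mitochondrial sodium-calcium exchanger, at 15.6 ± 2.72 and 12.3 ± 2.30 RPM (SD, n = 4 each). Mpc2, a subunit of the pyruvate carrier named after its values were seen, measured 486.2, 568.5, 536.3 and 520.5 RPM across WT1 to WT4, against 442.1, 479.1, 469.2 and 482.4 RPM across KO1 to KO4. Its groups did not overlap, where 5.1% of all 11004 targets had no overlap either. The log2 fold change of Mpc2 was -0.17 (limma with Benjamini-Hochberg adjustment, adjusted p = 0.720).

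None of the enzymes listed on either side of the carriers passed, apart from the targeted gene. Of the 3 malate-aspartate shuttle enzymes in the table, 0 passed, with log2 fold changes of 0.05 for Mdh1, 0.06 for Mdh2 and 0.03 for Got1. Of 4 carnitine shuttle and long-chain oxidation genes 0 passed, with Acadvl, a long-chain acyl-CoA dehydrogenase, at 608 ± 123.7 RPM (WT) against 703 ± 65.4 RPM (KO), and Crat, carnitine acetyltransferase, at 508 ± 61.6 and 550.0 ± 47.4 RPM (SD, n = 4 each). Of 4 tested partners of ATP export 0 passed, with Ckm, the cytosolic muscle creatine kinase, at 8483 ± 674.6 and 9300 ± 669.2 RPM. Among the 8 genes of complex II, Sdhc alone passed.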

How the data were processed

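RNA of 8 tibialis anterior muscles was read, per the labels' protocols, on the Ion AmpliSeq Transcriptome Mouse panel with libraries made on an Ion Chef robot. The authors deposited 1 table of RPM values, which sum to the same total in every library. Transcriptome Analysis Console is the tool named in the submitters' processing notes; no source used here gives the aligner, build, counting rule or filters. Columns were matched to samples by barcode. Division by the value of 1 read gave whole reads, to within 0.1, for 100% of values (5983175 to 9119006 per library).

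Groups were compared on log2(RPM + 1) wherever the 8 libraries averaged 1 RPM or more, with limma 3.58.1 in R 4.3.3 (intensity trend, two-sided, Benjamini-Hochberg over 11004 targets, threshold 0.05). 4 members and sums were also tested with an exact permutation test (scipy 1.17.1). The count tests were edgeR 4.0.16, quasi-likelihood, and DESeq2 1.42.0. Other alternatives were pseudocounts of 0.1 and 5 RPM, no filter or one at 10 RPM, scaling by TMM, by median ratios or by quantiles, no trend, library weights, a replicate block, sex as a term, a bone gene covariate, and libraries left out. The procedure was also run on simulated reads with changes larger than 1.5-fold and no differences in cell content between libraries. No result above rests on that run.

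Values in every library were given for requested members, the 6 with the highest mean, the 4 most positive and 4 most negative, and those with an unadjusted p under 0.05 or no overlap; Slc25a30, and Mpc2 and Ucp3 outside the family, were added after their values were seen. Pathway lists name the 2 genes with the smallest p. A few genes, 1 member among them, are counted but not reported here by name or drawn. The members and lists were chosen with earlier results of these data known. Gene positions are from GENCODE M21 (GRCm38). Lists are from textbook knowledge; genes of them outside the table were not analysed here. The labels name no batch and do not say whether muscles were pooled, so p-values measure the spread between these libraries.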

Additional observations from a re-analysis of the deposited data

Results flagged for a closer look

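In 4 of 66 groups of 4 libraries, from 33 members with at least 20 reads in a library, 1 library lay far from the other 3; chance gives about 5% of groups, or 3.3. Slc25a4 was at 6698 RPM in KO4, where the other KO libraries were at 8124 to 8279 RPM. Slc25a22 was at 31.3 RPM in WT2, where the other WT libraries were at 15.2 to 16.0 RPM. Slc25a34, for which no role is stated here, was at 3.96 RPM in KO3, where the other KO libraries were at 6.95 to 7.19 RPM. Slc25a44 was at 46.1 RPM in KO1, where the other KO libraries were at 62.0 to 64.8 RPM.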

How the results depend on the processing

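The count of 0 members past the threshold was the same in all 23 alternatives. Over all targets, limma called 3 genes, against 1 with median-ratio, TMM or quantile scaling, without the intensity trend, with the replicate block, with the bone gene covariate, without WT1 and WT4, and in edgeR. DESeq2 called 149. Leaving out single libraries gave 1 to 130 calls, with 130 without WT3, 10 without KO1 and 1 without any other. Members above 0 numbered 18, against 8 with the bone gene covariate, 6 without WT1 and WT4, and 11 to 20 when single libraries were left out, 11 being without WT4. The median log2 fold change of the members moved from 0.00 by less than 0.134 in all 23. That bound is the SD of the family median of single libraries within groups, which is lenient for a difference of group means. The median reached -0.13 without WT1 and WT4 and -0.11 with the bone gene covariate. The labels do not say what a replicate number marks, so the numbers were not taken as pairs. Deviations of same-numbered WT and KO libraries had correlations of 0.00337 for replicate 1, 0.257 for 2, 0.125 for 3 and 0.105 for 4. Differently numbered ones ran from -0.325 to 0.279. Those above 0 were of the same sex, as inferred below (WT1 with KO3, WT3 with KO1, WT2 with KO4 and WT4 with KO2).

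Values near 0 changed sign, none of them past the threshold, and the cause was not tested. Slc25a3 was 0.058 with median-ratio scaling, 0.044 with TMM, 0.0088 with library weights, 0.040 in edgeR, 0.046 in DESeq2 and -0.058 to 0.041 with single libraries left out. Slc25a4 was 0.032, 0.018, 0.020 and 0.026 with median-ratio scaling, TMM, edgeR and DESeq2 and -0.071 to 0.039 with single libraries left out. Slc25a12 was 0.058, 0.045, 0.077 and 0.084 in the same order and -0.21 to 0.19 with single libraries left out. Slc25a11 was -0.046 with the bone gene covariate and -0.051 without WT1 and WT4. Slc25a20 was -0.13 and -0.15 in those fits and -0.022 to 0.22 with single libraries left out. Slc25a25 was -0.089 with library weights, -0.057 with the bone gene covariate, -0.34 without WT1 and WT4, and -0.33 to 0.71 with single libraries left out. The Slc25a12 to Slc25a13 ratio kept its direction in all 11 alternatives, at -1.51 to -0.55 with single libraries left out and -0.33 on RPM + 1, against -1.02, and the ratio of Slc25a4 to Slc25a5 was not run because Slc25a5 was not analysed here. Depth limits members near 3 reads, where differences were not detectable.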

Other observations

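Sex is not in the labels and was inferred here from 4 Y-linked genes together with Xist, by which replicates 1 and 3 of both groups were male and replicates 2 and 4 female. Slc25a30, an uncoupling-protein-like member, stood at 31.4 to 64.9 RPM in the 4 male libraries and at 19.6 to 29.97 RPM in the 4 female libraries, without overlap. Among the 34 tested members 2 had no overlap between the sexes, Slc25a30 and Slc25a17 (7.88 to 10.5 RPM in females, 6.65 to 7.80 RPM in males), where 5.26% of the 11004 targets had none. In a fit with genotype and sex, looked at after the values were seen, the log2 difference of Slc25a30, female minus male, was -0.93. Slc25a30 did not pass (limma with Benjamini-Hochberg adjustment, adjusted p = 0.0663). Of the 34 tested members 0 passed for sex and 3 had an unadjusted p under 0.05, where 66 of 11004 targets passed and 10% had such a p. Slc25a29 and Slc25a34, the other members with such a p, had differences of 0.58 and 0.64.

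Slc25a25 was highest in KO1, WT2 and KO3 (73.2, 40.0 and 35.6 RPM). The same libraries were the highest for Ucp3, the uncoupling protein gene of skeletal muscle, chosen after its values were seen, at 238.8, 264.3 and 187.4 RPM, where the other libraries held 68.0 to 104.9 RPM. By inferred sex, Slc25a25 was higher in both male KO libraries (73.2 and 35.6 RPM) than in both male WT libraries (11.6 and 26.5 RPM). In females both KO libraries (20.1 and 7.52 RPM) lay below both WT libraries (40.0 and 20.5 RPM). In a fit with a genotype by sex term, also looked at afterwards, Slc25a25 did not pass (limma, unadjusted p = 0.00229, adjusted p = 0.593). Of the 34 tested members 0 passed for this term, where 4 of 11004 targets did.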
